A study of Mus musculus with 24 samples.

Results

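The genes described here are the mouse factors that write, guide or read methylation of lysine 9 on histone H3 (H3K9). They are 10 genes, chosen by name with earlier results of these data known: *Setdb1* and its partners *Atf7ip* and *Trim28*, the G9a and GLP genes *Ehmt2* and *Ehmt1*, the methyltransferase genes *Suv39h1* and *Suv39h2*, and the HP1 genes *Cbx1*, *Cbx3* and *Cbx5*. All 10 were among the 55471 genes of the SLIM-seq table, a low-input method in which an antibody against N6-methyladenosine (m6A) pulls down methylated RNA (IP) for comparison with RNA that did not pass over the antibody (Input). SLIM-seq had 3 Input and 3 IP libraries of each of 3 stages: MII oocytes of superovulated wild-type B6D2F1 (C57BL/6J x DBA/2N) females of 8 weeks, and embryos late in the 1-cell (L1C) or the 2-cell stage (L2C) from such females mated with adult B6D2F1 males. A second experiment compared L2C embryos injected as zygotes with Cas13d mRNA and 3 crRNAs against *Ythdc1*, a nuclear reader of m6A (KD, 3 libraries), with embryos injected with Cas13d mRNA alone (NC, 3 libraries). Both groups therefore carried Cas13d, and NC held no control crRNA. Each library was made from pooled oocytes or embryos. Nothing in the labels ties the libraries to separate animals, so p-values measure the spread between these libraries.

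H3K9 methylation marks silent chromatin. SETDB1 is brought to retroviral repeats and imprinted genes by TRIM28, a co-repressor that binds KRAB zinc finger proteins, and is stabilised by ATF7IP. G9a and GLP add mono- and dimethylation, SUV39H1 and SUV39H2 add trimethylation at pericentromeric repeats, and the HP1 proteins bind the methylated histone. An oocyte stores many of these proteins and mRNAs, and the embryo's own genome is switched on broadly at the 2-cell stage, when maternal RNA is being cleared.

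m6A is placed within the motif class to which GGACT belongs. GGACT, searched on the mRNA strand only, occurred in the mRNA of all 10 genes, as it did in 86.7% of 21877 protein-coding genes (1 transcript each). It was densest in *Suv39h1*, with 7 in 2778 nt or 2.52 per kb, against a median of 1.02 per kb over those genes. It was sparsest in *Cbx3*, with 0.529 per kb. *Suv39h2*, whose RNA was enriched in the IP at every stage, held 0.924 per kb, while *Setdb1*, whose RNA was below its Input at every stage, held 1.72 per kb. The GGACT of the coding sequence nearest to its end is shown in its genomic context for *Suv39h2* and *Cbx5*, both called higher in IP than in Input at MII, and for *Suv39h1* and *Setdb1*, neither of which was (GRCm38, in the direction of the mRNA, motif in capitals):
Suv39h2 (chr2:3462541-3462561, minus strand): tttgacctGGACTacgagtct
Cbx5 (chr15:103200856-103200876, minus strand): ttgagagaGGACTggaaccag
Suv39h1 (chrX:8062940-8062960, minus strand): acccgaatGGACTccaacttt
Setdb1 (chr3:95324148-95324168, minus strand): ctcacttgGGACTacaactac
A match is only these letters in the sequence. The libraries were counted per gene, so the position of m6A within an RNA was not measured.

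*Ythdc1* was targeted by these 23-nt crRNAs, each complementary to all 3 of its 3 coding transcripts within the coding sequence (chromosome 5, GRCm38). The first and the second each lie within an exon and the third spans an exon junction.
crRNA 1 (chr5:86817026-86817048): cctcattctcagtgttgttgccc
crRNA 2 (chr5:86815667-86815689): aattcatcatcctgttctggtac
crRNA 3 (chr5:86816772-86816908, across the intron): ctctcagaaccatctggtgtagg
*Ythdc1* mRNA was 523, 541 and 519 CPM (counts scaled to a common library size) in the KD libraries and 1080.2, 1098 and 994 CPM in the NC libraries, scaled to the merged KD table. KD embryos thus held less *Ythdc1* mRNA in every library, with a log2 change of -1.004 (SE 0.06, adjusted p = 1.34e-10).

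SLIM-seq libraries held 11107421 to 39739950 estimated counts, assigned to whole gene spans with their introns. Per library, the merged KD table held 3276715 to 5463868 counts on exons of 25739 genes, among them 7 of the 10 genes. *Ehmt2*, *Cbx1* and *Cbx5* lie beyond this table and were read from 5 libraries counted over the whole annotation (8696476 to 14500548 counts), since KD replicate 3 had no counts there. Summed levels of 8 oocyte transcripts were 7831 to 8947 CPM in MII Inputs and 756 to 784 CPM in L2C Inputs, and those of 7 transcripts typical of the 2-cell embryo 29.3 to 35.3 CPM and 404 to 548 CPM. The stage labels and the markers therefore pointed the same way. Cumulus cell markers (8 genes, 1 of them at 0 in every Input of each stage) summed to 2.50 to 9.79 CPM over the Inputs, and 4 sperm transcripts to 2.16 to 2.97 CPM before L2C and 55.5 to 73.6 CPM at L2C. In the merged KD table the 2-cell transcripts found there (4 of 7) summed to 405 to 472 CPM in KD and 1776 to 1902 CPM in NC, and the oocyte transcripts (4 of 8) to 836 to 899 CPM in KD and 1368 to 1423 CPM in NC. What the levels of stage markers had to do with the changes of the 10 genes was not tested. In libraries of this kind fewer cells and less RNA per cell cannot be told apart, and values are shares of a library. The study describes reverse transcription from an oligo-dT primer, which binds poly(A) tails. Tail length was not measured, so changes of tail length and of RNA amount between stages cannot be told apart.

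Changes were tested with the quasi-likelihood test of edgeR over all genes that passed its filter on low counts, and a change was called at a Benjamini-Hochberg adjusted p under 0.05. Input CPM below are scaled by TMM over the 9 Inputs, unless all 18 libraries are named. Comparisons between stages share Inputs with each other and with the IP/Input comparisons, so their results are given side by side only.

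SLIM-seq reads were counted over gene spans, and several of the genes share their span with another gene that had reads. The sources differ on whether the libraries kept the strand of the RNA, which was not tested, so reads of genes on opposite strands may not be told apart. *Zbtb45*, a zinc finger gene on the opposite strand, lies wholly within the 31922-bp span of *Trim28* and shares no exon with it. The antisense transcript gene Gm14820 overlaps 98.96% of the span of *Suv39h1* and 767 bp of its exons. *Dclre1c*, a DNA repair gene, overlaps 43.3% of the span of *Suv39h2* and 357 bp of its exons on the opposite strand. An intron of *Cbx1* holds the processed pseudogene Gm11517, with 45.9 to 66.5 CPM in L2C Inputs and 0 at MII and L1C. The unclassified transcript Gm37500 overlaps *Setdb1*, as does *Cers2* by 75 bp, and Gm44140 lies within *Atf7ip*. Each fit was therefore repeated with the counts of overlapping genes added to those of the gene, a choice made after the data were seen, and the result is given where it changed a call. Adding Gm37500 to *Setdb1* or Gm44140 to *Atf7ip* changed no call of either (*Setdb1* from L1C to L2C went from -1.20 to -1.09), and *Cers2* was not added.

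*Setdb1* (chr3:95323525-95357202, minus strand), the methyltransferase that silences retroviral repeats, was highest at L1C. Its Inputs held 151, 124 and 124 CPM at MII, 192, 166 and 186 CPM at L1C and 71.0, 81.5 and 84.1 CPM at L2C. No stage overlapped with another. *Setdb1* rose from MII to L1C by 0.45 on the log2 scale (SE 0.13, adjusted p = 0.00754) and fell by 1.20 from L1C to L2C (SE 0.13, adjusted p = 5.85e-07). *Atf7ip* (chr6:136506167-136610862, plus strand), which encodes the partner that protects SETDB1, had a different course. Its Inputs held 891, 836 and 838 CPM at MII, 413, 389 and 460.1 CPM at L1C and 225, 262 and 234 CPM at L2C. Each stage lay below the one before, with a log2 change of -1.02 to L1C (SE 0.11, adjusted p = 4.76e-06) and of -0.81 from there to L2C (SE 0.11, adjusted p = 1.21e-05).

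*Trim28* (chr7:12999114-13031035, plus strand), the co-repressor that brings SETDB1 to its targets, was lowest at L1C. Its Inputs held 28.5, 29.6 and 27.8 CPM at MII, 5.79, 5.89 and 7.65 CPM at L1C and 86.2, 109 and 82.5 CPM at L2C. It fell by 2.15 on the log2 scale from MII to L1C (SE 0.16, adjusted p = 9.79e-08) and rose by 3.85 from L1C to L2C (SE 0.17, adjusted p = 4.82e-11). With the counts of *Zbtb45* added, the fall to L1C was -1.57 (adjusted p = 2.78e-06) and the rise to L2C 1.64 (adjusted p = 3.45e-07). The difference between L2C and MII, 1.69 for *Trim28* alone (adjusted p = 7.33e-08), was 0.07 with *Zbtb45* added (adjusted p = 0.682). Both readings thus had the low point at L1C, while a gain over MII was seen only without *Zbtb45*.

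**Figure D1:**
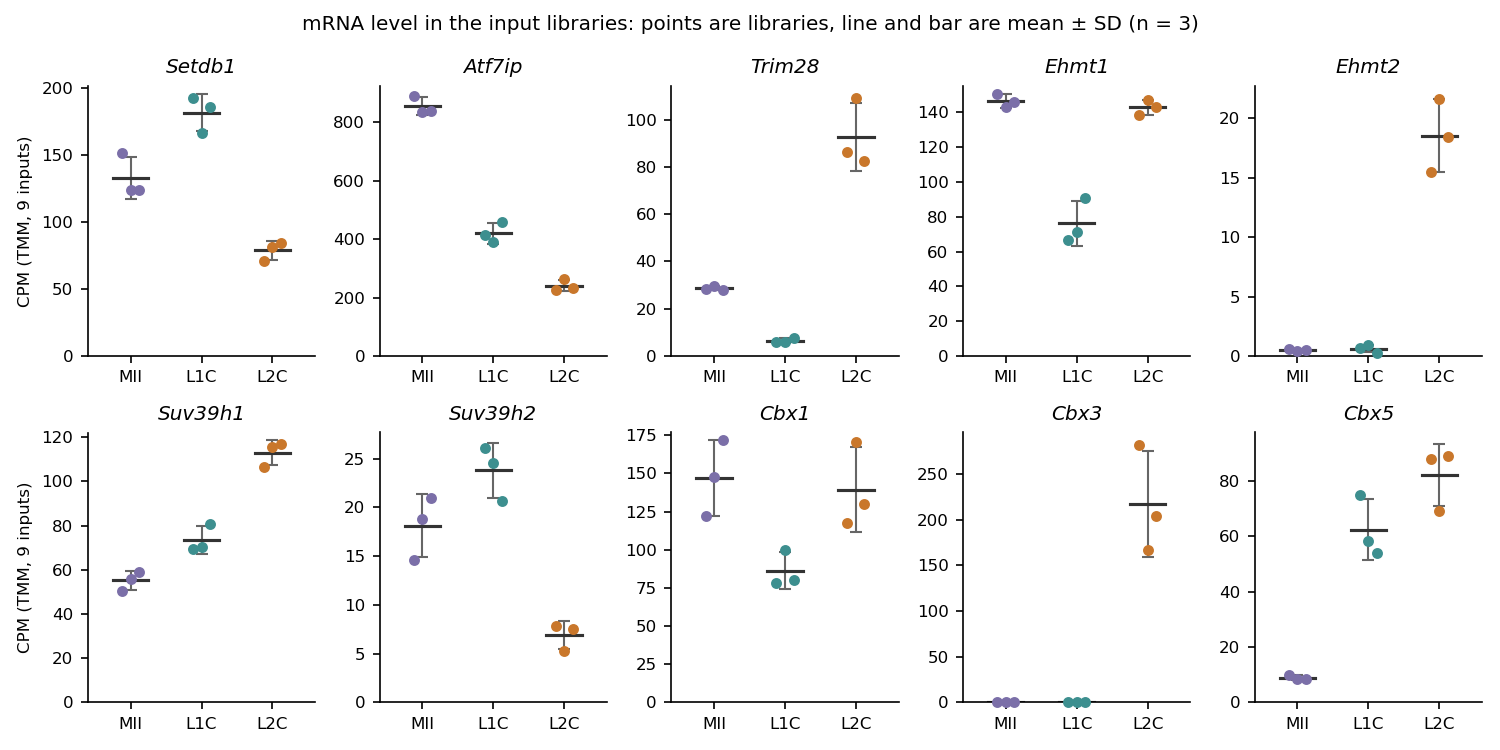
Level of each gene (CPM, TMM over the 9 Inputs, linear axes from 0, each panel with its own range) in the Input libraries of MII oocytes, L1C and L2C embryos. Points are libraries and lines with bars are mean ± SD (n = 3). *Atf7ip* fell at each stage, *Trim28* was lowest at L1C, and *Cbx3* and *Ehmt2* were near 0 before L2C.

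*Ehmt1* (chr2:24789928-24919614, minus strand) and *Ehmt2* (chr17:34898469-34914052, plus strand) encode GLP and G9a, which act as a dimer. *Ehmt1* Inputs held 151, 143 and 146 CPM at MII, 66.6, 71.1 and 91.0 CPM at L1C and 138, 147 and 143 CPM at L2C. It fell by 0.94 on the log2 scale to L1C (SE 0.13, adjusted p = 2.97e-05) and rose by 0.91 to L2C (SE 0.13, adjusted p = 1.27e-05). *Ehmt2* was barely detected in the oocyte, at 13, 9 and 9 counts in the MII Inputs and 16, 19 and 5 counts in those of L1C. L2C Inputs held 459, 455 and 729 counts, or 15.5, 21.7 and 18.5 CPM. The rise of *Ehmt2* from L1C to L2C was 4.88 on the log2 scale (SE 0.30, adjusted p = 1.43e-09). The genes for the partners of this dimer thus differed in the RNA read from the oocyte, which was detected for *Ehmt1* and close to the floor for *Ehmt2*. Whether the oocyte held *Ehmt2* RNA that the oligo-dT primer did not reach was not tested.

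*Suv39h1* (chrX:8061171-8074760, minus strand) and *Suv39h2* (chr2:3455815-3475031, minus strand) encode the methyltransferases of pericentromeric repeats, with 61.8% identical coding sequences and no identical run longer than 26 nt. *Suv39h1* Inputs held 50.5, 56.0 and 59.2 CPM at MII, 69.4, 70.1 and 80.8 CPM at L1C and 106, 115 and 117 CPM at L2C. It was higher at L1C than at MII (log2 0.41, SE 0.12, adjusted p = 0.00917) and higher at L2C than at L1C (log2 0.62, SE 0.12, adjusted p = 0.000212). The antisense gene Gm14820 held 53.0 to 61.3 CPM at MII, 97.2 to 134 CPM at L1C and 16.0 to 21.3 CPM at L2C. With its counts added, the change of *Suv39h1* from L1C to L2C turned to -0.50 (adjusted p = 0.0014) and that from MII to L2C went from 1.03 to 0.23 (adjusted p = 0.0901). As Gm14820 itself was lower at L2C than at L1C, the sum does not show how reads were divided between these transcripts, which was not tested.

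*Suv39h2* had 14.6, 18.8 and 21.0 CPM at MII, 26.1, 24.6 and 20.7 CPM at L1C and 7.87, 5.28 and 7.54 CPM at L2C. MII and L1C overlapped and their difference was not called (log2 0.40, SE 0.19, adjusted p = 0.0886). L2C lay below both, with a log2 change of -1.78 from L1C (SE 0.20, adjusted p = 9.47e-07), or -1.45 with the overlapping *Dclre1c* added (adjusted p = 2.56e-07). NC embryos of L2C, counted on exons, held far more *Suv39h2*: 66.5 CPM, against 17.3, 23.6 and 7.29 CPM in the Inputs of MII, L1C and L2C (library-size CPM, means). Why the experiments differed was not tested, and the fall to L2C is uncertain for this reason.

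The HP1 genes had coding sequences 70.2% to 71.1% identical to each other, with no identical run longer than 20 nt, and each had its own course. *Cbx1* (HP1 beta, chr11:96789127-96808640, plus strand) held 122, 147 and 172 CPM at MII, 78.2, 100.1 and 80.3 CPM at L1C and 117, 171 and 129.8 CPM at L2C. It fell by 0.77 on the log2 scale to L1C (SE 0.17, adjusted p = 0.00137) and rose by 0.69 to L2C (SE 0.17, adjusted p = 0.00148). With the pseudogene Gm11517 added, L2C was higher than MII by 0.38 (adjusted p = 0.0437), which was -0.08 and not called without it (adjusted p = 0.668).

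*Cbx5* (HP1 alpha, chr15:103191544-103239816, minus strand) rose early. Its Inputs held 9.91, 8.44 and 8.57 CPM at MII, 74.9, 58.4 and 54.2 CPM at L1C and 88.2, 69.2 and 89.0 CPM at L2C. The rise to L1C was 2.80 on the log2 scale (SE 0.17, adjusted p = 9.96e-09), with the lowest L1C library above every MII library. L1C and L2C overlapped, and their difference of 0.39 (SE 0.15, adjusted p = 0.0265) was lost without L1C replicate 2 or 3 or L2C replicate 1 or 3 (log2 0.29 to 0.34, adjusted p 0.093 to 0.121) and when only these stages were fitted (log2 0.31, adjusted p = 0.0979).

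*Cbx3* (HP1 gamma, chr6:51470360-51483704, plus strand) held 1, 7 and 9 counts in the MII Inputs and 13, 9 and 5 counts in the L1C Inputs. L2C Inputs held 8324, 3513 and 8035 counts, or 281, 167 and 203 CPM. The rise from L1C to L2C was 8.99 on the log2 scale (SE 0.35, adjusted p = 1.61e-11), the largest change among the 10 genes in the comparisons between stages other than its own rise from MII (log2 9.57). Its coding sequence has 12 further copies in the genome at 90% identity or more over at least 200 nt, so that reads of its mRNA can be given to processed pseudogenes. The pseudogenes annotated there summed to 9.95 CPM at MII, 12.5 CPM at L1C and 8.46 CPM at L2C (library-size CPM, means of the Inputs), above *Cbx3* itself at MII and L1C. How much of that RNA came from *Cbx3* was not tested, and the fold is uncertain for this reason.

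Of the 10 genes, 3 rose from MII to L1C and 4 fell, while 31.9% of the 19903 genes tested were called higher and 24.3% lower. From L1C to L2C 7 were higher and 3 lower, beside 44.1% and 38.8% of all genes. From MII to L2C 5 were higher and 3 lower, beside 47.5% and 37.1%. The median log2 change of the 10 genes was 0.34, 0.66 and 0.50 in these comparisons, and that of all genes tested 0.16, 0.17 and 0.40. Since most genes change between these stages, these counts say little about the group as such. What the values show is that its genes moved in different directions.

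The IP was compared with the Input of the same stage to ask whether the RNA of a gene carried m6A above the average RNA. Values are given as IP/Input, each IP library divided by the mean of the 3 Inputs of its stage, with CPM scaled over all 18 libraries. This scaling sets the typical gene near 1. With library size as the only scaling, the median log2 IP/Input of all genes was higher by 0.20, 0.30 and 0.25 at MII, L1C and L2C. The share of calls that were higher then went from 45.7% to 61.7% at MII, from 46.5% to 70.9% at L1C and from 50.0% to 67.6% at L2C.

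*Suv39h2* RNA was enriched at all 3 stages. Its IP/Input at MII was 2.16, 1.80 and 2.49, at L1C it was 1.72, 1.78 and 2.06, and at L2C 2.88, 3.07 and 2.68. Every IP library lay above every Input of its stage. The log2 IP/Input was 1.10 (SE 0.17, adjusted p = 3.29e-05), 0.89 (SE 0.17, adjusted p = 0.000378) and 1.51 (SE 0.18, adjusted p = 1.57e-06). With *Dclre1c* added it was 0.62, 0.61 and 1.01, and each remained called. *Suv39h1* differed from it: its IP/Input was 0.94 to 1.03 at MII and 0.88 to 0.94 at L1C, neither called, and 0.69, 0.57 and 0.71 at L2C, where it was lower than Input (log2 -0.61, SE 0.10, adjusted p = 0.000132).

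*Cbx1* RNA was also enriched at all 3 stages. Its IP/Input at MII was 1.98, 1.503 and 1.94, at L1C it was 1.56, 1.48 and 2.44, and at L2C 2.44, 2.28 and 2.59. The log2 values were 0.85 (SE 0.18, adjusted p = 0.00104), 0.87 (SE 0.19, adjusted p = 0.00117) and 1.28 (SE 0.19, adjusted p = 1.97e-05). Adding Gm11517 left these values as they were. *Cbx5* was enriched at MII and L2C. IP/Input at MII was 2.46, 2.30 and 2.13, at L1C it was 0.85, 0.86 and 0.78, and at L2C 1.41, 1.57 and 1.51. The log2 IP/Input was 1.20 at MII (SE 0.15, adjusted p = 2.07e-06) and 0.58 at L2C (SE 0.13, adjusted p = 0.0018), while L1C was not called (log2 -0.26, SE 0.13, adjusted p = 0.143). The difference between L1C and MII was itself called (log2 -1.46, SE 0.20, adjusted p = 9.47e-05), and so was that between L2C and L1C (log2 0.85, SE 0.19, adjusted p = 0.00906). The latter was lost when only these stages were fitted (log2 0.67, adjusted p = 0.0621). As *Cbx5* RNA was rising between MII and L1C, its IP CPM went from 23.0 to 26.6 up to 55.8 to 61.0, and its Input from 10.1 to 12.1 up to 60.9 to 85.8, over all 18 libraries.

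*Cbx3* RNA, where it was abundant, was enriched: IP/Input at L2C was 1.74, 1.74 and 1.78 (log2 0.81, SE 0.23, adjusted p = 0.00722). At L1C the log2 IP/Input was 1.37 (SE 0.45, adjusted p = 0.0246) on few counts, and the call was lost without Input replicate 2 or 3 or IP replicate 1 or 2 (log2 1.16 to 1.36, adjusted p 0.0522 to 0.0996). At MII 0 to 0.493 CPM were in the IP and 0.0527 to 0.603 CPM in the Input, and no difference was detectable at this depth.

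*Setdb1* RNA was below its Input at each stage. IP/Input at MII was 0.83, 0.85 and 0.73, at L1C it was 0.48, 0.50 and 0.44, and at L2C 0.64, 0.61 and 0.63. The log2 values were -1.08 at L1C (SE 0.11, adjusted p = 5.91e-07) and -0.67 at L2C (SE 0.11, adjusted p = 0.000104). At MII the value was -0.32 (SE 0.11, adjusted p = 0.0314), and this call was lost with DESeq2 (-0.25, adjusted p = 0.0617), with library size as the only scaling (-0.08, adjusted p = 0.581), without the filter on low counts (-0.31, adjusted p = 0.137), with this stage fitted alone (-0.27, adjusted p = 0.0548) and without Input replicate 1 (-0.20), IP replicate 1 (-0.34) or IP replicate 3 (-0.25). *Atf7ip* RNA was the lowest of the group. IP/Input at MII was 0.25, 0.28 and 0.23, at L1C it was 0.40, 0.36 and 0.35, and at L2C 0.41, 0.36 and 0.40, with log2 values of -1.98 (SE 0.11, adjusted p = 1.27e-10), -1.43 (SE 0.11, adjusted p = 1.4e-08) and -1.35 (SE 0.11, adjusted p = 2.51e-08).

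*Trim28* had the highest IP/Input of the 10 genes at MII and L1C, while *Zbtb45* within its span was below Input. Its IP/Input at MII was 3.03, 3.73 and 2.99, at L1C it was 2.93, 3.09 and 3.09, and at L2C 1.30, 0.82 and 1.13. The log2 values were 1.70 (SE 0.16, adjusted p = 6.34e-08), 1.61 (SE 0.17, adjusted p = 5.58e-07) and 0.12 (SE 0.15, adjusted p = 0.554), the last called with library size as the only scaling (log2 0.37, adjusted p = 0.0435). The IP/Input of *Zbtb45* was 0.0952 to 0.177 at MII and 0.243 to 0.497 at L1C, and at L2C it was listed at 0 in all 3 IP libraries and at 17.2 to 22.8 CPM in the Inputs. With the counts of both genes added together the log2 IP/Input was -0.05 at MII (adjusted p = 0.906), -0.29 at L1C (adjusted p = 0.238) and -0.17 at L2C (adjusted p = 0.464). The sum of both genes was therefore not called at any stage. Whether reads were divided correctly between them was not tested, and a sum near 0 does not measure it.

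**Figure D2:**
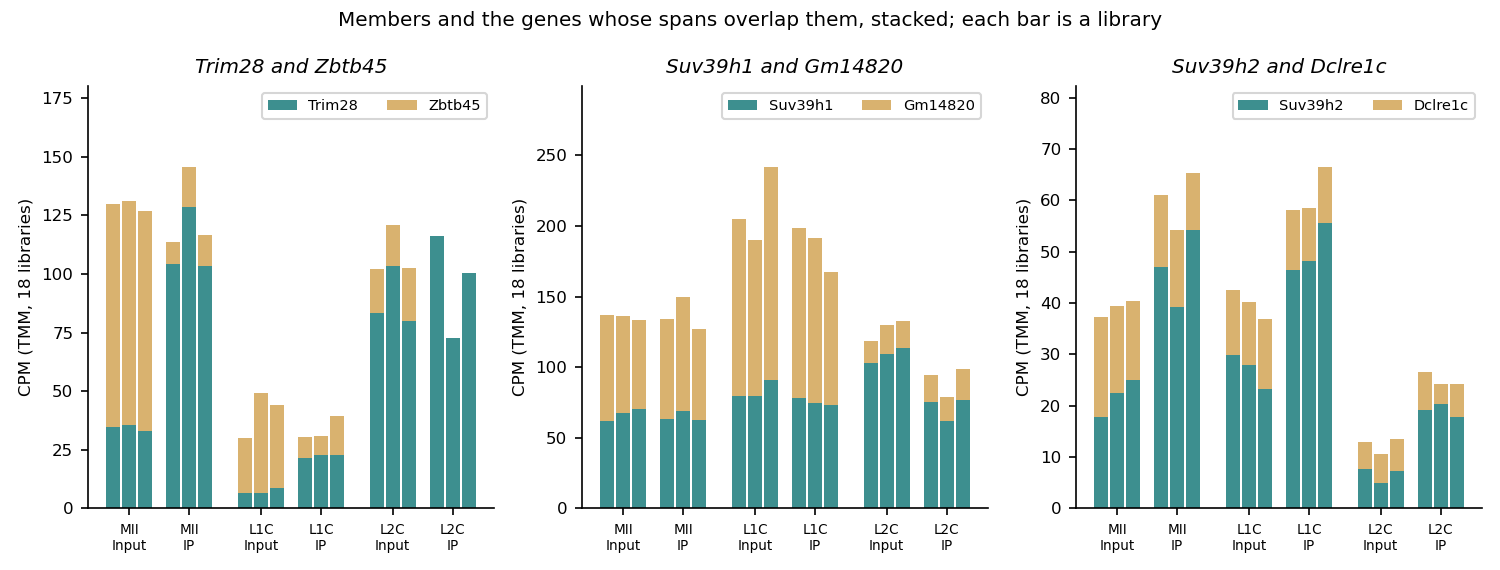
Stacked CPM (TMM over all 18 libraries, linear axes from 0) of *Trim28*, *Suv39h1* and *Suv39h2*, and of the gene that overlaps each span; each bar is a library and each stage shows 3 Inputs and 3 IPs. At MII *Trim28* held 33.1 to 35.5 CPM in the Inputs and 103 to 129 CPM in the IPs, while *Zbtb45* held 93.9 to 95.8 CPM and 9.03 to 16.8 CPM, so the stacked heights differ far less than either part.

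*Ehmt1* RNA was called lower in the IP at L1C, with IP/Input of 0.68, 0.68 and 0.60 (log2 -0.61, SE 0.12, adjusted p = 0.000513). At MII it was 0.72 to 0.91 (log2 -0.26, adjusted p = 0.0856) and at L2C 1.09 to 1.17 (log2 0.18, adjusted p = 0.211). The difference between L2C and L1C was called (log2 0.79, SE 0.17, adjusted p = 0.00584), that between L1C and MII was not (log2 -0.34, adjusted p = 0.254). With library size as the only scaling *Ehmt1* was called higher in the IP at L2C (log2 0.44, adjusted p = 0.00425). *Ehmt2* could be read only at L2C, where IP/Input was 0.69, 0.40 and 0.58 (log2 -0.84, SE 0.29, adjusted p = 0.026). This call was lost with library size as the only scaling (-0.59, adjusted p = 0.0953) and without Input replicate 2 (-0.73) or 3 (-0.85) or IP replicate 2 (-0.66) or 3 (-0.86).

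At MII 4 of the 10 genes were called higher in the IP and 2 lower, and 17.7% of the 21950 genes tested were higher and 21.0% lower. At L1C 4 were higher and 3 lower, beside 15.8% and 18.2% of all genes. At L2C 4 were higher and 4 lower, beside 22.0% and 22.0%. The median log2 IP/Input of the 10 genes was 0.10, -0.14 and 0.15, and that of all genes 0.00, 0.07 and 0.09. Without the call for *Trim28* the counts of higher genes at MII and L1C were 3 and 3. IP/Input changed between stages for 3 of 10 genes from MII to L1C, where 7.33% of all genes were called, for 3 from L1C to L2C (9.47% of all genes) and for 4 from MII to L2C (20.3% of all genes). *Trim28* accounted for 1 of the calls from L1C to L2C and 1 of those from MII to L2C, both of which were lost with *Zbtb45* added (log2 0.12 and -0.12). Further calls were fragile: that of *Atf7ip* from MII to L1C was lost without any one of 10 of the 18 libraries. That of *Cbx5* from MII to L2C was lost without any one of 8.

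**Figure D3:**
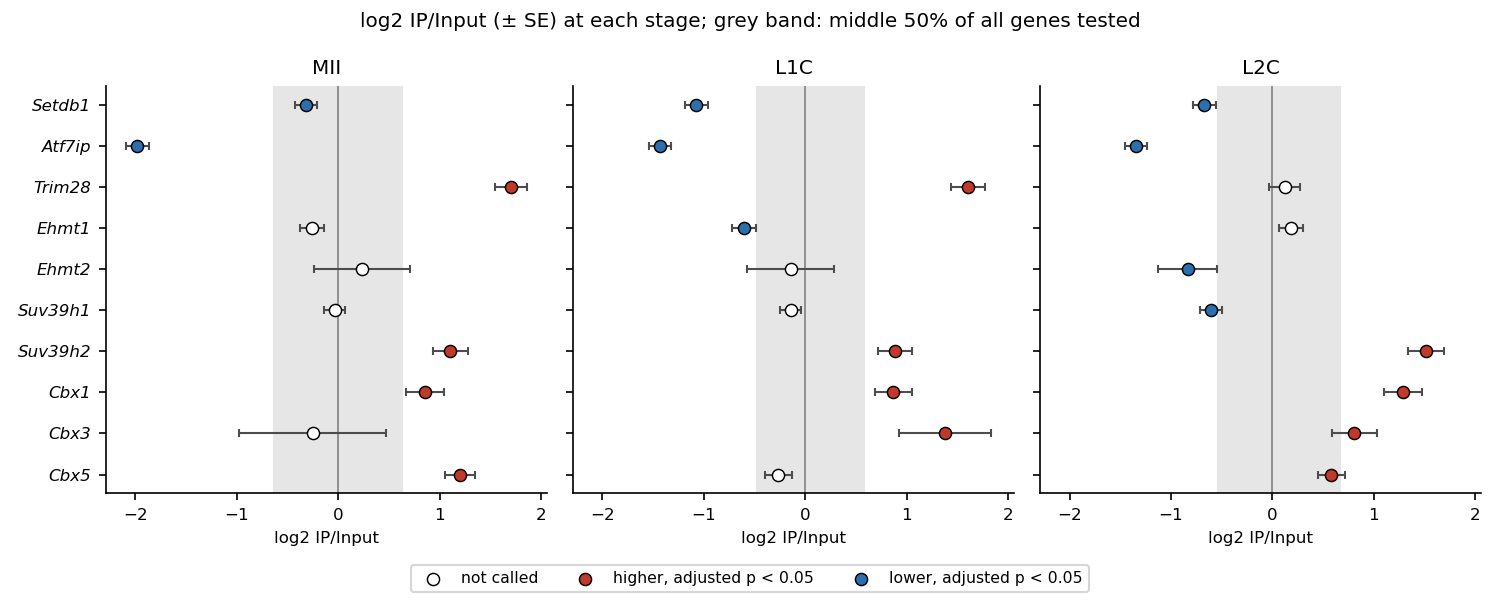
log2 IP/Input of each gene at MII, L1C and L2C, with the SE of the fit as bars (3 IP and 3 Input libraries per stage); red (higher) and blue (lower) circles are called at an adjusted p under 0.05, open circles are not and the grey band spans the middle 50% of the genes tested. *Suv39h2* and *Cbx1* lie right of 0 at every stage, *Setdb1* and *Atf7ip* left of it, and *Cbx5* is called at MII and L2C only; the values of *Trim28* do not include the reads given to *Zbtb45* within its span.

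The knockdown of *Ythdc1* was compared with NC to ask how the mRNAs depended on this reader at L2C. Levels between genes are compared per kb of exon, in NC libraries counted on exons over the whole annotation. *Cbx3* was highest at 65.2 ± 3.90 CPM per kb (SD, n = 3), then *Trim28* at 28.1 ± 2.93. *Cbx5* (15.2 ± 0.865) and *Suv39h2* (14.8 ± 0.190) had overlapping ranges, as did *Cbx1* (11.2 ± 0.317) and *Ehmt1* (11.0 ± 0.994), and *Ehmt1* and *Suv39h1* (10.5 ± 0.184). *Setdb1* (7.55 ± 0.649), *Atf7ip* (4.17 ± 0.227) and *Ehmt2* (1.17 ± 0.214) followed, each below the one before in every library. The length is that of all annotated exons merged, which for *Atf7ip* is 20726 bp against an mRNA of 8059 nt and for *Cbx1* 4273 bp against 1251 nt, so the order depends on it. SLIM-seq Inputs of L2C, counted with introns, gave another order: *Suv39h2* was last there, at 1.56 ± 0.319 CPM per kb, and *Cbx1* stood next to *Cbx3* (32.6 ± 6.54 and 36.3 ± 9.72, with overlapping ranges).

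*Suv39h2* fell the most of the 10 genes. It held 78.9, 82.6 and 87.7 CPM in KD and 168, 172 and 169 CPM in NC, on the scale of the merged table. The log2 change was -1.03 (SE 0.09, adjusted p = 7.56e-09), close in size to that of *Ythdc1* itself. *Dclre1c*, which shares exon sequence with it on the opposite strand, held 50, 80 and 79 counts in KD and 4, 3 and 3 counts in NC, and counting took no account of strand. The part of *Dclre1c* in the values of *Suv39h2* was not tested. *Suv39h1* held 163, 146 and 174 CPM in KD and 145, 146 and 142 CPM in NC, which was not called (log2 0.16, SE 0.09, adjusted p = 0.106) except without KD replicate 2 (log2 0.23, adjusted p = 0.0283). Gm14820, antisense to it, held 11.5, 10.6 and 13.2 CPM in KD and 32.6, 31.3 and 31.9 CPM in NC.

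Several of the others rose in the knockdown. *Atf7ip* held 318, 328 and 319 CPM in KD and 237, 213 and 225 CPM in NC (log2 0.51, SE 0.07, adjusted p = 3.49e-06). *Trim28* held 377, 454 and 398 CPM in KD and 275, 298 and 340.1 CPM in NC (log2 0.43, SE 0.08, adjusted p = 0.000184). These counts are on exons, which *Trim28* does not share with *Zbtb45*. *Ehmt1* held 329.9, 339 and 346 CPM in KD and 213, 229 and 256 CPM in NC (log2 0.54, SE 0.08, adjusted p = 4.51e-06), and *Cbx3* 1428, 1346 and 1266 CPM in KD and 1019, 1074 and 957 CPM in NC (log2 0.40, SE 0.06, adjusted p = 1.655e-05). KD and NC did not overlap for any of these 4 genes. *Setdb1* held 179, 132 and 165 CPM in KD and 142, 140.2 and 122 CPM in NC. Its groups overlapped and its change was not called (log2 0.23, SE 0.10, adjusted p = 0.0552), while it was without KD replicate 2 (log2 0.35, adjusted p = 0.00297) or NC replicate 1 (log2 0.28, adjusted p = 0.0403), with the replicate number as a block (log2 0.23, adjusted p = 0.0498) and without the filter on low counts (log2 0.22, adjusted p = 0.0412).

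For *Ehmt2*, *Cbx1* and *Cbx5* the fit had 2 KD and 3 NC libraries, and CPM are those of the whole annotation. *Ehmt2* was the gene with the largest rise, at 15.3 and 16.4 CPM in KD and 6.70, 5.13 and 7.42 CPM in NC (log2 1.31, SE 0.19, adjusted p = 1.83e-05). *Cbx1* held 29.4 and 40.1 CPM in KD and 49.0, 48.5 and 46.4 CPM in NC, which was lower (log2 -0.47, SE 0.13, adjusted p = 0.00363). The KD libraries of *Cbx1* differed more from each other than those of NC, and without KD replicate 1 the change was -0.25 and not called (adjusted p = 0.128). *Cbx5* held 157 and 145 CPM in KD and 139.5, 142 and 128 CPM in NC, which was not called (log2 0.14, SE 0.09, adjusted p = 0.16).

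**Figure D4:**
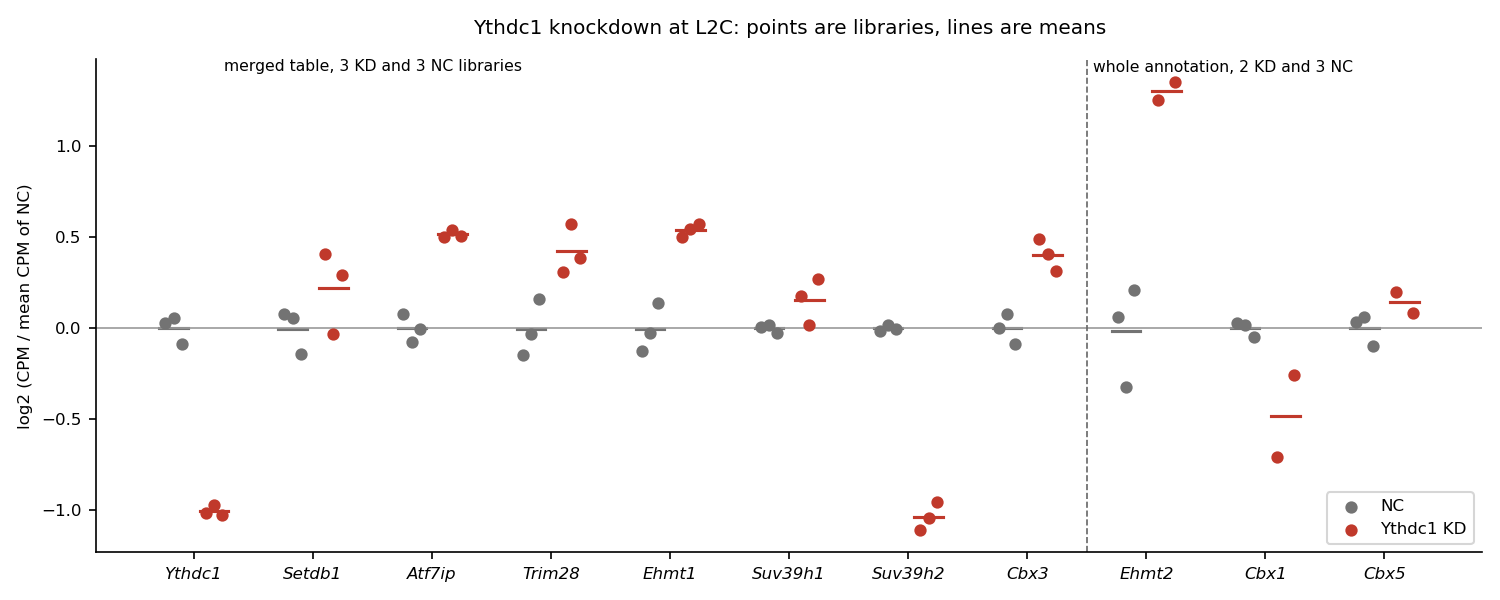
log2 of CPM over the mean CPM of NC, for *Ythdc1* and the 10 genes in KD (red) and NC (grey) libraries of L2C embryos; points are libraries, lines are means, and genes right of the dashed line have 2 KD libraries. *Suv39h2* lies near the level of *Ythdc1* in every KD library, and *Ehmt2* has the largest rise.

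Of the 7 genes of the merged table, 4 were called higher in KD and 1 lower, where 33.5% of the 7433 genes tested were called higher and 37.4% lower. Of the 3 genes beyond it, 1 was higher and 1 lower, beside 30.5% and 36.4% of 17074 genes. The median log2 change of the 7 genes was 0.40 and that of all genes of the table -0.06. Fitted over the whole annotation, with 2 KD libraries, the 7 genes kept their direction and their calls. Side by side, *Suv39h2* and *Cbx1*, whose RNA was enriched in the IP at L2C, were lower in KD, *Cbx3*, also enriched, was higher, and *Cbx5*, also enriched, was not called. Of the genes below Input at L2C, *Atf7ip* and *Ehmt2* were higher in KD, and *Setdb1* and *Suv39h1* were not called. With so few genes no relation between enrichment and response was tested.

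Other genes of this silencing system were read from 6 lists with 44 genes in all: further H3K9 methyltransferases, the HUSH complex and other SETDB1 partners, G9a-GLP partners, relatives of TRIM28 with KRAB zinc fingers that recruit it, chromatin proteins bound by HP1 or TRIM28, and H3K9 demethylases. From MII to L1C 16 of the 44 were higher and 15 lower, where 31.9% and 24.3% of all genes were. *Zfp57*, the zinc finger that guards imprints, rose (log2 1.38, SE 0.12), as did *Hdac1*, a histone deacetylase, from 6 to 10 counts in the MII Inputs to 55 to 70 counts (log2 2.86, SE 0.26). *Daxx*, a histone H3.3 chaperone, fell (log2 -1.63, SE 0.12), and *Mphosph8*, a HUSH subunit that reads H3K9 methylation, fell as well (log2 -1.44, SE 0.13). From L1C to L2C 24 were higher and 11 lower (all genes 44.1% and 38.8%). *Kdm3a*, an H3K9 demethylase, rose by 4.66 on the log2 scale (SE 0.15) and *Zfp809*, a KRAB zinc finger that binds a retroviral primer site, by 3.73 (SE 0.15). *Zfp57* fell by 3.63 (SE 0.13) and *Uhrf1*, a partner of DNA methylation that reads H3K9 methylation, fell by 3.58 (SE 0.14). From MII to L2C 27 were higher and 13 lower (all genes 47.5% and 37.1%). *Hdac1* (log2 7.43, SE 0.23) and *Kdm3a* (log2 4.37, SE 0.15) rose, and *Uhrf1* (log2 -4.42, SE 0.15) and *Prdm16* (log2 -4.04, SE 0.16), a PR-domain protein, fell. The median log2 change of the 44 genes was 0.00, 0.60 and 0.87 in these comparisons, and that of all genes 0.16, 0.17 and 0.40.

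Of the 44 genes, 11 were higher and 18 lower in the IP of MII oocytes, beside 17.7% and 21.0% of all genes. In that of L1C 10 were higher and 17 lower (all genes 15.8% and 18.2%), and in that of L2C 17 higher and 13 lower (all genes 22.0% and 22.0%). *Trim24*, a relative of TRIM28, was enriched at each stage (log2 1.94, 0.69 and 0.91), and so was *Trim33*, another relative of TRIM28 (log2 1.28, 1.32 and 0.52). *Zfp644*, a G9a-GLP partner, was enriched at MII and L2C (log2 0.75 and 1.07) and not called at L1C (log2 0.18). *Chaf1a*, a subunit of the CAF-1 histone chaperone, was enriched at MII (log2 1.99), not called at L1C (log2 -0.24) and below its Input at L2C (log2 -0.89). *Daxx* RNA was below its Input at each stage (log2 -2.36, -1.76 and -1.81), as were *Uhrf1* RNA (log2 -1.81, -1.49 and -1.07) and that of *Kdm4b*, a demethylase (log2 -1.21, -1.42 and -1.80). IP/Input differed between L1C and MII for 6 of the 44 (7.33% of all genes), rising for *Kdm3a* (log2 1.13) and *Kdm3b* (log2 1.06) and falling for *Chaf1a* (log2 -2.22) and *Trim24* (log2 -1.25). Between L2C and L1C it differed for 10 of the 44 (9.47% of all genes), rising for *Prdm16* (log2 1.48) and *Cdyl2* (log2 1.56), a chromodomain protein, and falling for *Chaf1b* (log2 -0.89) and *Trim33* (log2 -0.80). Between L2C and MII 19 differed (20.3% of all genes), with *Prdm16* (log2 1.90) and *Cdyl* (log2 1.02) up and *Chaf1a* (log2 -2.87) and *Trim24* (log2 -1.03) down. All of these list counts use TMM scaling.

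In the knockdown 19 of the 44 genes were tested in the merged table, and 12 were higher and 4 lower, where 33.5% and 37.4% of all genes were. *Atrx*, a chromatin remodeller that deposits H3.3 with DAXX, held 1915 to 2033 CPM in KD and 846 to 1079 CPM in NC (log2 1.02, SE 0.07, adjusted p = 9.98e-10). *Lbr*, the lamin B receptor that binds HP1, rose by 0.73 on the log2 scale (SE 0.07, adjusted p = 1.74e-08). *Prdm16* (log2 -1.36, SE 0.36) and *Mecom* (log2 -0.50, SE 0.13), both PR-domain genes, fell. *Prdm16* rested on few counts, 8 to 20 in KD and 22 to 45 in NC. Over the whole annotation 42 of the 44 were tested, with 25 higher and 8 lower (all genes 30.5% and 36.4%). By list, higher and lower numbered 5 and 0 of 5 for the HUSH and SETDB1 partners, 5 and 1 of 6 for the TRIM28 relatives and zinc fingers, 9 and 2 of 13 for the HP1- and TRIM28-bound proteins, 1 and 0 of 3 for the G9a-GLP partners, 2 and 2 of 4 for the other methyltransferases, and 3 and 3 of 11 for the demethylases. *Zfp809* was lower (log2 -1.20, SE 0.10). *Kdm4d*, a demethylase of H3K9, had 43 to 61 counts in the NC libraries and 0 in both KD libraries. Taking 3 counts per library as the least that could be seen, *Kdm4d* was at least 13.7-fold lower in KD.

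Over the 18 SLIM-seq libraries, the protein-coding genes whose log2(CPM + 1) followed that of *Setdb1* most closely, among 10136 genes with a mean of at least 5 CPM, were *Ehd3* (Pearson r = 0.98), *Kif5c* (r = 0.978) and *Kif3b* (r = 0.969). For *Trim28* they were *Ccdc85c* (r = 0.975), *Paf1* (r = 0.973) and *Tcf20* (r = 0.973). These used *Trim28* without the reads given to *Zbtb45* within its span, and were not repeated with them added. The 18 libraries are not independent points, since they share stage and kind of library, and no test was made.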

How the data were processed

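SLIM-seq comprised 18 libraries and the KD experiment 6, grouped by their labels. The authors made estimated counts (kallisto, 1 target per gene spanning its introns) and deposited them without scaling to library size. For the KD experiment the authors deposited read counts on exons, made with Trimmomatic, HISAT2 and featureCounts 2.0.1 (Ensembl release 99, GRCm38), without strand. Estimated counts were rounded. The merged KD table ends within chromosome 7, and so do the counts of KD replicate 3. Replicates differed by more than counting error in every group (chi-square per degree of freedom of 2.77 or more).

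edgeR 4.0.16 (R 4.3.3) was used with TMM, its filter on low counts and the quasi-likelihood test: 9 Inputs together, all 18 SLIM-seq libraries for IP/Input and its change between stages, and the KD experiment on its own. p-values were adjusted over all genes tested. DESeq2 1.42.0 was the other tool. In simulated counts for L1C against MII the Input fit found 64 of 100 genes changed 2-fold and 96 of 100 changed 4-fold, with 13 false calls. For the change of IP/Input from MII to L2C the simulated fit found 35 of 100 genes changed 2-fold and 84 of 100 changed 4-fold, so smaller changes can be missed there. In both simulations all other genes were left unchanged. In the data far more genes moved (31.9% called higher and 24.3% lower from MII to L1C), so these rates need not hold there. Copies were found with BLAST+ 2.17.0. Gene positions are those of GENCODE M21 (GRCm38). Other steps used Python 3.11.15.

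The text names all 10 genes, *Ythdc1*, for each comparison the 2 list genes with the smallest p in each direction, and the 3 genes most correlated with *Setdb1* and *Trim28*. The members and lists were chosen with earlier results of these data known. No column was left without a sample. Same-numbered libraries did not deviate from their group means together (r -0.324 to 0.315), and no source used here says that a number marks a batch, so the number was no block, although the study took IP and Input RNA from the same batches. The alternatives were DESeq2, library size as the only scaling, no filter, the block, only the stages compared, each library left out, the calls of the study (unadjusted p under 0.05, with IP above Input and more than 1 Input count, or in the KD with a log2 change over 1 in size) and, chosen after seeing the data, overlapping genes added.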

Additional observations from a re-analysis of the deposited data

Results flagged for a closer look

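IP/Input of a gene differed between stages, by the test of the difference itself in edgeR, in 10 cases among the 10 genes (3 from MII to L1C, 3 from L1C to L2C and 4 from MII to L2C, where 7.33%, 9.47% and 20.3% of all genes tested were called). From MII to L1C it rose for *Atf7ip* (log2 0.55) and fell for *Cbx5* (log2 -1.46) and *Setdb1* (log2 -0.76). From L1C to L2C it rose for *Cbx5* (log2 0.85) and *Ehmt1* (log2 0.79) and fell for *Trim28* (log2 -1.49). From MII to L2C it rose for *Atf7ip* (log2 0.63) and fell for *Cbx5* (log2 -0.61), *Suv39h1* (log2 -0.57) and *Trim28* (log2 -1.58). The differences of *Trim28* were lost when *Zbtb45*, which lies within its span, was added (log2 0.12, adjusted p = 0.831, and log2 -0.12, adjusted p = 0.822). That of *Atf7ip* from MII to L1C was lost without any one of 10 of the 18 libraries (MII Input 1, 2 or 3, L1C Input 1 or 2, MII IP 1 or 3, L1C IP 1 or 2, or L2C IP 3; log2 0.46 to 0.57). That of *Cbx5* from MII to L2C was lost without any one of 8 (MII Input 2 or 3, L2C Input 1 or 3, MII IP 1 or 2, L2C IP 1 or 3; log2 -0.62 to -0.56). Differences that were not called became so for *Suv39h1* from L1C to L2C without L1C Input 3 (log2 -0.53), for *Setdb1* from MII to L2C without MII Input 1 (log2 -0.48) and for *Ehmt1* from MII to L2C without L1C Input 3 (log2 0.44).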

How the results depend on the processing

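Most calls for single genes kept their direction and their side of the threshold: 93 of 100 with DESeq2, 88 of 100 with library size as the only scaling, 97 of 100 without the filter, 97 of 100 with the replicate block, 78 of 88 with only the stages compared, 80 of 90 with overlapping genes added, and 1350 of 1407 with 1 library left out. No setting could separate pooled oocytes or embryos from animals, and few counts limit *Ehmt2* and *Cbx3* before L2C.

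The count of genes lower in the IP at MII, 2 as reported, was 1 with library size alone, DESeq2, no filter or only that stage, and 1 to 2 with a library left out. The count whose IP/Input rose from MII to L1C, 1 as reported, was 0 with the replicate block (*Atf7ip* log2 0.55, adjusted p = 0.0545), no filter or only these stages, and 0 to 1 with a library left out; at an unadjusted p under 0.05 edgeR gave 1, 2 and 1, and DESeq2 gave 1 adjusted. From L1C to L2C the count that fell, 1 as reported, was 2 with library size alone, DESeq2 or only these stages, 0 with overlapping genes added (0 at an unadjusted p under 0.05), and 1 to 2 with a library left out (2 without L1C Input 3). There the count that rose, 2 as reported, was 1 with only these stages. From MII to L2C the count that rose, 1 as reported, was 2 with library size alone and 1 to 2 with a library left out (2 without L1C Input 3), and the count that fell, 3 as reported, was 5 with only these stages, 4 with DESeq2, 2 with overlapping genes added, and 2 to 4 with a library left out (2 without any one of the 8 libraries named for *Cbx5*, 4 without MII Input 1). By the calls of the study none of the 7 genes of the merged KD table was higher (4 as reported, 4 with DESeq2, and 5 at an unadjusted p under 0.05; *Suv39h2* stayed lower) and 0 of the 3 beyond it were lower (1 as reported, 0 to 1 with a library left out, 0 without KD replicate 1). The block changed 1 further call, *Setdb1* in KD. Same-numbered IP and Input libraries of a stage, whose RNA came from shared batches, had deviations correlated by -0.324 to 0.195, and a block per stage and number was not run.

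Over all genes, only the stages compared gave 566 rises and 1687 falls of IP/Input from L1C to L2C (1098 and 981 as reported), DESeq2 gave 1310 and 1718 and no filter 1025 and 1447, with a share of rises of 25.1%, 43.3% and 41.5% (52.8% as reported). Only the stages compared also gave 444 rises from MII to L1C (686 as reported). Library size alone moved the share of rises among the latter calls from 42.6% to 53.3%, and gave 6372 higher and 2613 lower genes in the IP at L1C (3463 and 3988 as reported) and 7315 higher at L2C (4830 as reported).

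Signs changed mainly for values near 0 that were never called. With library size alone these became 0.11 for *Ehmt1* and 0.067 for *Cbx1* (L2C against MII), 0.20 for *Suv39h1* in the IP at MII, and 0.16, 0.039 and 0.15 for *Suv39h1*, *Cbx5* and *Ehmt2* in the IP at L1C. With DESeq2 they became 0.046 and 0.0082 for *Ehmt1* and *Cbx1* (L2C against MII), 0.030 for *Suv39h1* in the IP at MII, and -0.015 for the change of *Cbx1* IP/Input from MII to L1C, which was also -0.016 with the replicate block and -0.074 with only these stages. Only the stage or stages compared gave 0.011 for *Suv39h1* in the IP at MII and -0.11 for *Atf7ip* IP/Input from L1C to L2C. Overlapping genes turned *Suv39h1* mRNA from L1C to L2C to -0.50, *Cbx1* mRNA from MII to L2C to 0.38, *Suv39h1* in the IP at MII to 0.013, *Trim28* in the IP to -0.047, -0.29 and -0.17 at MII, L1C and L2C, and its change from L1C to L2C to 0.12. The cause was not tested for the other settings. Left-out libraries gave ranges that crossed 0 for mRNA from MII to L1C of *Cbx3* (-0.012 to 1.15) and *Ehmt2* (-0.054 to 0.60), *Cbx1* mRNA from MII to L2C (-0.26 to 0.025), IP/Input at MII of *Suv39h1* (-0.086 to 0.0066) and *Cbx3* (-0.83 to 0.32), *Ehmt2* at L1C (-0.67 to 0.23), *Trim28* at L2C (-0.038 to 0.28), and the change from MII to L1C of *Trim28* (-0.16 to 0.033) and *Cbx1* (-0.26 to 0.14).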

Other observations

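The genes that overlap the members had values of their own, some of which are given above. *Zbtb45*, within the span of *Trim28*, held 46.7, 51.2 and 64.0 CPM in NC and 43.7, 38.1 and 35.2 CPM in KD, counted on exons in the merged table. In the SLIM-seq IP libraries of L2C it was listed at 0, although its Inputs held 17.2 to 22.8 CPM (all 18 libraries). Gm11517, within *Cbx1*, was listed at 0 in all MII and L1C libraries, and over the whole annotation it held 449 and 455 CPM in KD and 312, 321 and 372 CPM in NC, more than *Cbx1*.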
